A study of Homo sapiens with 6 samples.

Results

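The genes described here are 34 lysosome and autophagy genes of PANC-1, an established human cell line from a pancreatic ductal carcinoma. They were taken by gene symbol from a list of lysosomal membrane proteins, hydrolases, proton pump subunits, transcription factors and autophagy genes. Each symbol matched 1 of the 60612 genes in the deposited table. The rule used no expression value, but the genes were chosen with earlier results of these data known. Messenger RNA was profiled in 3 libraries of cells given 50 µM D(+)-raffinose pentahydrate, a plant trisaccharide, for 24 h, and in 3 libraries labelled only as PANC-1 cells, for which no vehicle or time is named. All cells grew in the same serum-containing medium, per the labels' protocols. The series title places the comparison in the context of the PI3K/AKT pathway, apoptosis and proliferation.

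Lysosomes are acidic organelles in which hydrolases degrade proteins, lipids and sugars, and the vacuolar proton pump (V-ATPase) keeps them acidic. In autophagy a double membrane encloses cytoplasm, and the resulting autophagosome fuses with the lysosome. TFEB and TFE3, transcription factors held in the cytoplasm when the mTORC1 kinase is active, switch on many lysosome and autophagy genes through a DNA element around the letters CACGTG. AKT acts upstream of mTORC1, and pancreatic carcinoma cells are known for high lysosome and autophagy activity.

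That element was searched for in RefSeq promoter sequences (build GRCh38.p14, 250 bases before to 50 bases after the start of 1 entry per gene). Other start sites of a gene were not searched, and the start used can differ from that in the deposited table. Among the promoters shown in this report it does so for CTSA, CTSD, ATP6V0D1 and SIDT2. An entry was found for 27 of the 34 genes, all but LAMP2, CTSB, HEXA, PSAP, ATP6V1H, ATP6V1A and UVRAG. The letters CACGTG, which read the same on both strands, occurred in 5 of these 27 promoters (18.5%), against 7.43% of 27305 promoters of the same length. The longer form TCACGTGA, which contains the shorter one, occurred in 4 of the 27 (1.04% of all promoters). The same letters with a further G in front and a C behind, 10 bases in all, occurred in 1 of the 27 (0.381% of all promoters). These matches are letters in a window and do not show binding. The windows below are shown because they hold the letters CACGTG of that element, with the longest matching form in capitals. They are written 5′ to 3′ along the gene's own strand. They lie at chr19:7522598-7522627 for MCOLN1, chr13:113297199-113297228 and chr13:113297226-113297255 for LAMP1, chr20:45891298-45891327 for CTSA, chr16:67481199-67481228 for ATP6V0D1 and chr11:1763957-1763986 for CTSD, the last 2 genes being on the minus strand.
MCOLN1: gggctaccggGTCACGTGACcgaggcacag
LAMP1, first: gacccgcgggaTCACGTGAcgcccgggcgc
LAMP1, second: cgcggcgcagcTCACGTGAcaagcgctgcc
CTSA: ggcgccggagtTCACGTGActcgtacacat
ATP6V0D1: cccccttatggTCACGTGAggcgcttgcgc
CTSD: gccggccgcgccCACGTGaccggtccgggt

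The LAMP1 window held 6 copies of the letters, counting both shown here, and those of MCOLN1 and CTSA held 2 each. The match in MCOLN1 was the only one of the 10-base form among the 27 promoters.

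None of the 34 genes passed the test between raffinose and untreated cells. All 34 passed the filter on low counts, and the threshold was an edgeR p under 0.05 after Benjamini-Hochberg adjustment over all 18863 genes tested. Of those, 0.122% were called, 0.0371% higher and 0.0848% lower with raffinose. The gene nearest to the threshold was SIDT2, a lysosomal membrane protein that takes up nucleic acids, at 27.1 ± 1.16 CPM (counts relative to the TMM-adjusted library size) in untreated and 41.4 ± 1.002 CPM in raffinose libraries (SD, n = 3 per group). ATP6V1A, the catalytic subunit of the V-ATPase, was at 37.8 ± 1.21 and 47.9 ± 1.95 CPM. DESeq2 called these 2 genes higher and no gene of the 34 lower, where it called 4.59% of the 14441 genes it gave an adjusted p (1.76% higher and 2.83% lower).

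Before adjustment, 9 of the 34 genes had an edgeR p under 0.05, against 13.3% of all genes tested. In 8 of them the raffinose mean was higher, against 6.21% of all genes, and in 1 it was lower, against 7.08%. All 3 raffinose libraries lay above all 3 untreated ones for 11 genes, against 10.6% of all genes tested, and below them for 2 genes, against 10.9%. The log2 fold change of raffinose over untreated was positive for 21 and negative for 13 genes, with a median of 0.07 beside 0.01 over all genes tested. Of the 34 genes, 33 had a mean of at least 20 CPM. Among the 7805 genes at that level, 17.4% had an unadjusted edgeR p under 0.05 and the median was -0.02. Without overlap, 10.3% of them were higher and 15.8% lower. The libraries are bulk RNA, so a change in the share of cells that express a gene cannot be told apart from a change in RNA per cell. The labels do not say whether replicates were separate cultures, so the p-values measure only a spread between libraries that may be technical.

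Total counts ranged from 59723420 to 66063664 per library, in units that overstate read pairs, and the 34 genes took 0.482% to 0.538% of them. The simple-epithelium keratins KRT8 and KRT18 stood at 1303 CPM or above in every library. Both were lower in all 3 raffinose libraries (DESeq2 adjusted p = 0.00579 and 0.00124, edgeR adjusted p = 0.164 and 0.119). KRT7, at or below 5.95 CPM, was also lower in all 3 (DESeq2 adjusted p = 0.0297, edgeR adjusted p = 0.199). CDH1 had overlapping groups. The epithelial markers KRT19 and EPCAM were at or below 0.853 CPM in every library. The summed level of 10 macrophage and leukocyte markers, cells rich in lysosomes, was 1.83 to 2.13 CPM in raffinose and 1.82 to 3.23 CPM in untreated libraries, with TYROBP at 0 in all 6. The 5 acinar markers were at 0 in every library. The summed level of 8 fibroblast markers was 368 to 381 CPM in raffinose and 409 to 432 CPM in untreated libraries, with DCN and FAP at 0 in 5 libraries and at or below 0.118 CPM in untreated replicate 3. Most of it was the collagen gene COL3A1, at 322 to 341 and 373 to 394 CPM (edgeR adjusted p = 0.178, DESeq2 adjusted p = 0.0344), while COL1A1 was higher in all 3 raffinose libraries, at 38.9 to 42.7 against 33.8 to 34.5 CPM (edgeR adjusted p = 0.242). The sum of the 6 epithelial markers was 3529 to 3877 CPM in raffinose and 4720.4 to 5786 CPM in untreated libraries. The part of the epithelial and fibroblast markers in the values below was not tested.

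Levels between genes were compared as FPKM, which is scaled to gene length. The most abundant of the 34 was PSAP, the precursor of the saposins that help to degrade sphingolipids, at 209 ± 6.88 FPKM without and 226 ± 3.20 FPKM with raffinose (SD, n = 3 per group). The aspartic protease CTSD followed at 145 ± 26.7 and 128 ± 2.90 FPKM, and the autophagy receptor SQSTM1 (p62) at 119 ± 3.05 and 138 ± 4.55 FPKM. CTSD was above SQSTM1 in all 3 untreated libraries, at 124.1 to 175.3 against 116.8 to 122.2 FPKM. In the raffinose libraries it was below, at 126 to 131.5 against 133.2 to 142.3 FPKM, and whether this order differs between the groups was not tested. The cathepsins CTSZ, CTSL and CTSB and the membrane protein LAMP1 came next, with means over all libraries between 39.9 and 50.7 FPKM. TFEB was the lowest, at 0.663 ± 0.156 and 0.674 ± 0.00480 FPKM, while its relative TFE3 was at 21.9 ± 0.391 and 21.9 ± 0.528 FPKM, above TFEB in all 6 libraries.

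**Figure D1:**
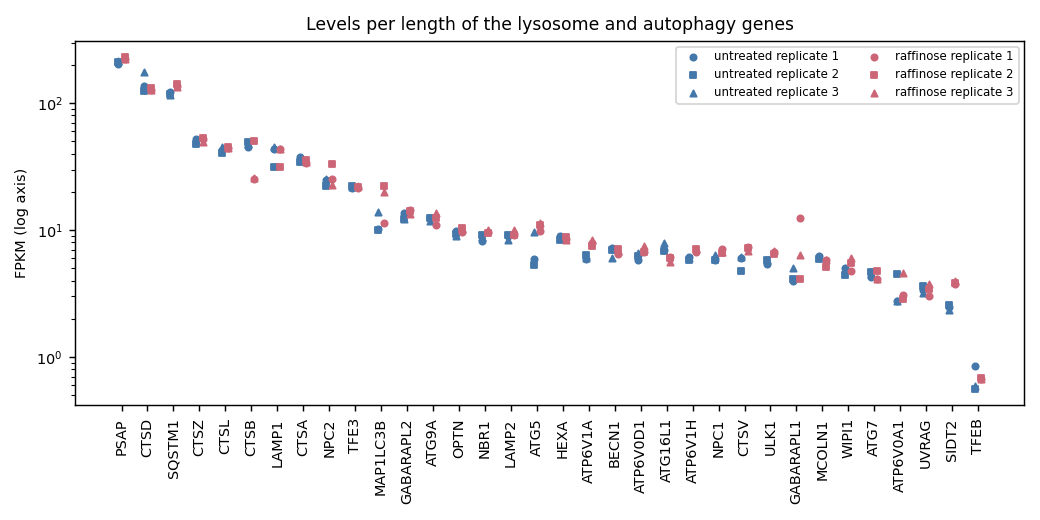
FPKM of each of the 34 genes on a log axis, 1 point per library, with genes ordered by their mean over the 6 libraries. PSAP, CTSD and SQSTM1 lie above 100 FPKM in every library, and TFEB lies below 1 FPKM in every library.

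Among the lysosomal membrane proteins, SIDT2 separated the groups most clearly. SIDT2 (ENSG00000149577, chromosome 11, 117178736 to 117197442, plus strand in the deposited table) was at 27.8, 27.8 and 25.8 CPM in untreated replicates 1, 2 and 3 and at 40.3, 41.8 and 42.2 CPM in raffinose replicates 1, 2 and 3. Every raffinose library was above every untreated one, and the libraries of each group lay close together. The log2 fold change was 0.61 (SE 0.07, 95% interval 0.44 to 0.78), with an adjusted p of 0.0566 by edgeR, which places it 24th of all genes by p. DESeq2 gave an adjusted p of 1.12e-09. With any 1 library left out the fold change stayed between 0.574 and 0.63 and the edgeR adjusted p between 0.0964 and 0.206. The SIDT2 promoter is shown because this gene came closest to the threshold. It spans chr11:117178493-117178792 on the plus strand in RefSeq (GRCh38.p14), has a GC content of 56.0%, and has no CACGTG in its 300 bases, so it has no capitals.
SIDT2: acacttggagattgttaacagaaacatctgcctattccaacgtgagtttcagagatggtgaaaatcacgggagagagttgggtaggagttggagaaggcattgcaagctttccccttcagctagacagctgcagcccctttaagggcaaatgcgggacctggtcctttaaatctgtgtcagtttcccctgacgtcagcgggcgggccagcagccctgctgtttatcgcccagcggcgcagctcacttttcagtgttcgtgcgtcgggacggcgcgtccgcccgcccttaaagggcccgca

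The other membrane proteins showed smaller differences. NPC1, which exports cholesterol from the lysosome, was at 69.4, 68.1 and 74.6 CPM without and 81.3, 77.4 and 75.6 CPM with raffinose. Its groups did not overlap, and the log2 fold change was 0.14 (SE 0.06, edgeR adjusted p = 0.405). NPC1 overlaps RMC1 on the opposite strand by 25639 bases, and RMC1 was also higher, at 40.7 to 43.4 CPM against 36.7 to 38.1 CPM. Whether the counting used the strand is not given in the sources used here. MCOLN1, the calcium channel TRPML1 of the lysosome, was at 30.5, 28.0 and 29.5 CPM without and 27.4, 24.3 and 26.8 CPM with raffinose. Its raffinose libraries were all below its untreated ones (log2 fold change -0.17, SE 0.08, edgeR adjusted p = 0.449).

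LAMP1 and LAMP2, the most abundant glycoproteins of the lysosomal membrane, did not separate the groups. LAMP1 was at 313, 216 and 313 CPM in untreated and at 295, 217 and 293 CPM in raffinose replicates 1, 2 and 3. The low library was replicate 2 in both groups, and the difference within each group exceeded that between them (log2 fold change -0.06, 95% interval -0.50 to 0.37). LAMP2 had a log2 fold change of 0.07 with an interval of -0.09 to 0.22.

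Of the 4 V-ATPase subunits, 3 had all raffinose libraries above all untreated ones, against 10.6% of all genes tested, and all 4 had positive log2 fold changes, with a median of 0.16. Among 18 other tested subunits of the pump, 1 was higher without overlap and 3 lower, with a median of 0.00. The lower ones include a subunit with means of only 0.283 CPM without and 0.0994 CPM with raffinose. ATP6V1A (ENSG00000114573, chromosome 3, 113747033 to 113812056, plus strand) was at 37.3, 39.2 and 37.0 CPM in untreated and 47.9, 45.9 and 49.8 CPM in raffinose replicates 1, 2 and 3. The groups were well apart, with a log2 fold change of 0.34 (SE 0.07, 95% interval 0.18 to 0.50, edgeR adjusted p = 0.146). DESeq2 called it (adjusted p = 0.00389), 1 of 2 such calls among the 34 genes. ATP6V1H, a regulatory subunit of the cytosolic part of the pump, was at 38.5, 35.4 and 37.2 CPM without and 41.0, 43.3 and 42.5 CPM with raffinose. Its groups did not overlap either (log2 fold change 0.19, SE 0.07, edgeR adjusted p = 0.310). For ATP6V0D1, of the membrane part of the pump, the raffinose libraries at 65.6, 66.0 and 71.1 CPM were just above the untreated ones at 58.4, 60.7 and 65.5 CPM. ATP6V0A1, also of the membrane part, fell into levels near 40 CPM in 4 libraries and near 60 CPM in the other two. It was at 37.6, 59.3 and 36.4 CPM without and 40.2, 37.7 and 58.8 CPM with raffinose, so that the high libraries were 1 of each group.

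**Figure D2:**
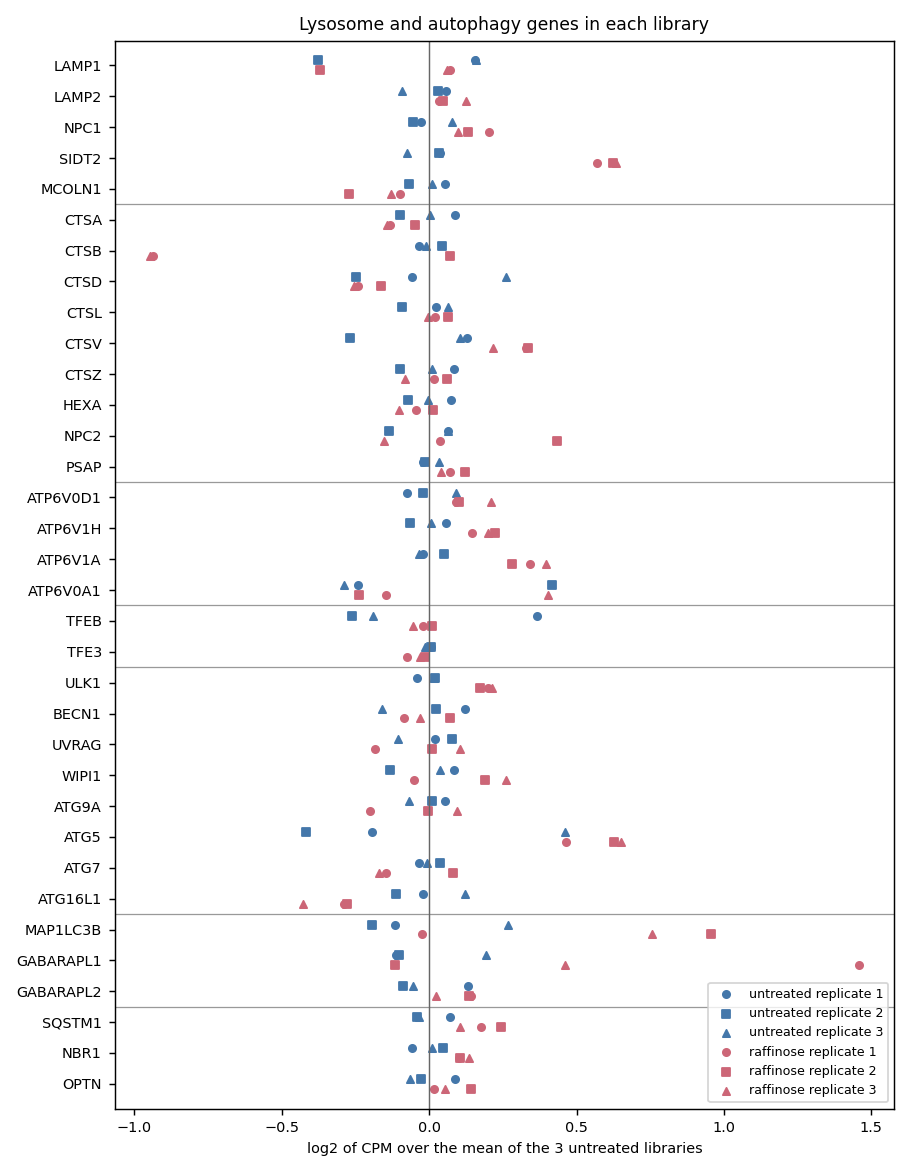
Each row is 1 of the 34 genes and each point 1 library, as log2 of its CPM over the mean of the 3 untreated libraries, with lines between roles. The raffinose points of SIDT2 lie together above its untreated points, while CTSB, MAP1LC3B and GABARAPL1 have raffinose points both near and far from the untreated ones.

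Hydrolases and other luminal proteins had log2 fold changes from -0.52 to 0.29 with a median of 0.00. The cysteine protease CTSB (ENSG00000164733, chromosome 8, 11842524 to 11868713, minus strand) was at 411, 434 and 418 CPM in untreated and at 220.1, 443 and 219 CPM in raffinose replicates 1, 2 and 3. A pair of raffinose libraries was near 220 CPM and the remaining one was above all untreated libraries. The log2 fold change was -0.52 with a wide interval of -1.19 to 0.14 (SE 0.28, edgeR adjusted p = 0.481). Without raffinose replicate 2 it was -0.942 and edgeR called it lower (adjusted p = 0.0284), the only call among the 34 genes when each of the 6 libraries was left out in turn.

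CTSV, a cysteine protease closely related to CTSL, was at 34.1, 25.9 and 33.6 CPM without and 39.2, 39.4 and 36.2 CPM with raffinose, with no overlap between the groups (log2 fold change 0.29, SE 0.12, edgeR adjusted p = 0.368). CTSL itself had levels from 90.2 to 100.3 CPM over the 6 libraries and a log2 fold change of 0.03 with an interval of -0.12 to 0.18. How the authors' counting treated any reads that match both CTSV and CTSL was not examined. CTSD was at 522, 458 and 652 CPM without and 459.9, 486 and 456 CPM with raffinose, with untreated replicate 3 the highest. Its groups overlapped (log2 fold change -0.22, 95% interval -0.52 to 0.08). CTSD shares 11200 bases with a gene listed as AC068580 (ENSG00000250644) on the same strand, which was at 5.94 to 22.7 CPM.

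The remaining luminal proteins stayed near their untreated level. PSAP had raffinose libraries at 849.8, 881 and 832 CPM and untreated ones at 798, 801 and 829 CPM, which did not overlap, but the log2 fold change was only 0.08 (SE 0.05, edgeR adjusted p = 0.525). CTSA, which protects other lysosomal enzymes, had one of -0.11, HEXA, which cleaves gangliosides, one of -0.04, and CTSZ one of 0.00. Their 95% intervals were -0.26 to 0.05, -0.20 to 0.11 and -0.17 to 0.17. NPC2, the luminal partner of NPC1, was at 103 CPM in raffinose replicate 2 and at 68.2 to 79.4 CPM in the other libraries.

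The transcription factors TFEB and TFE3 did not separate the groups. TFEB was at 5.95, 3.85 and 4.04 CPM in untreated and 4.54, 4.64 and 4.44 CPM in raffinose replicates 1, 2 and 3. Untreated replicate 1 was the highest, and the log2 fold change of -0.02 had an interval of -0.49 to 0.45. TFE3 was at 113, 113 and 111 CPM without and 106, 111 and 109.6 CPM with raffinose, with a narrower interval of -0.16 to 0.08. Both proteins are controlled mainly by where in the cell they are, which RNA levels do not measure.

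Of the 5 genes whose promoter held CACGTG, 4 had a negative log2 fold change (LAMP1, MCOLN1, CTSA and CTSD) and ATP6V0D1 a positive one of 0.14. Among the 22 genes with a promoter entry and no such letters, 6 were negative. In the wider lists described below, 11 of 24 tested genes with the letters and 41 of 95 without them were negative. Over all tested genes with an entry, 54.4% with and 48.2% without the letters were negative. These counts are a description, and none of the 5 genes passed the test.

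**Figure D3:**
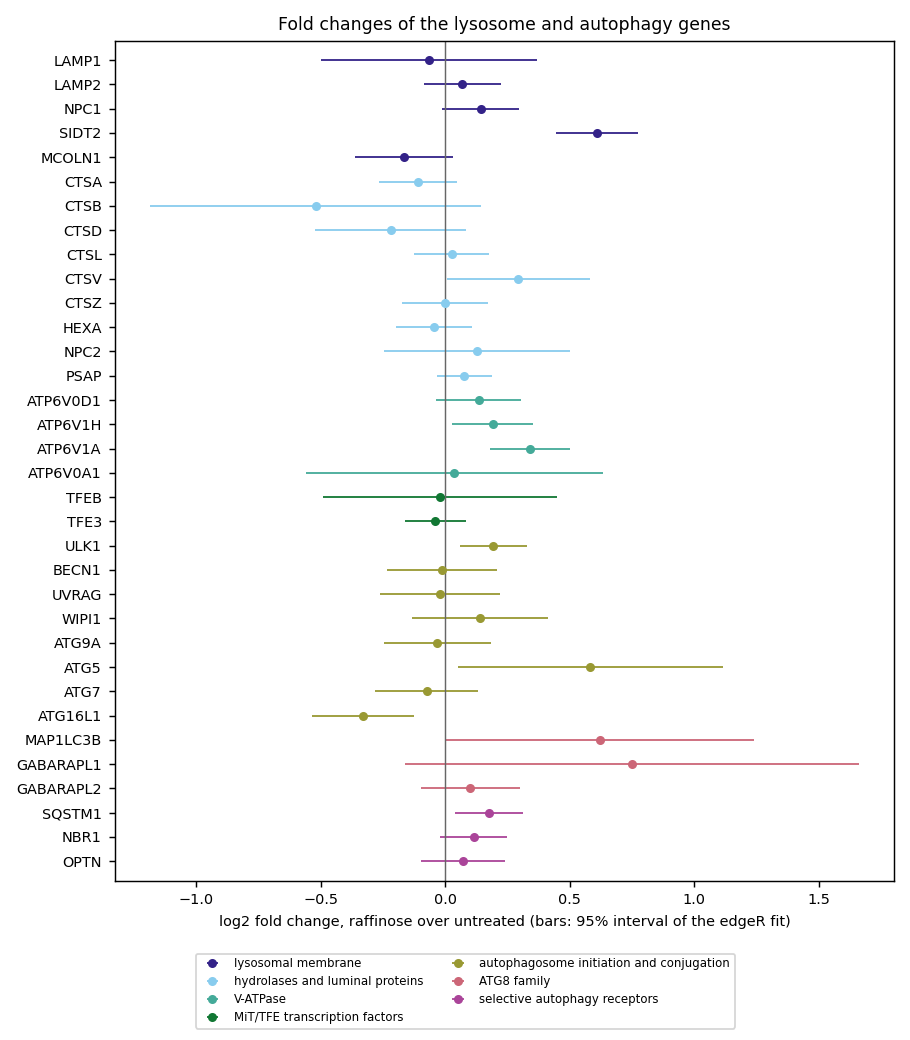
The log2 fold change of raffinose over untreated for the 34 genes, coloured by role, with the 95% interval of the edgeR fit. The intervals of SIDT2 (0.44 to 0.78), ATP6V1A (0.18 to 0.50), ULK1, SQSTM1, ATP6V1H, ATG5, CTSV and MAP1LC3B lie above 0, that of MAP1LC3B only just. That of ATG16L1 (-0.54 to -0.12) lies below 0, and those of CTSB and GABARAPL1 are wide. The intervals are not adjusted for the number of genes.

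Genes that start autophagosomes and attach ATG8 proteins to membranes differed in both directions, with 3 positive and 5 negative log2 fold changes. ULK1, the kinase that starts autophagy, was at 51.1, 53.3 and 53.1 CPM without and 60.2, 59.1 and 60.9 CPM with raffinose. All raffinose libraries were higher, by a log2 fold change of 0.19 (SE 0.06, edgeR adjusted p = 0.245). ATG16L1, which places the conjugation machinery on the forming membrane, was at 52.6, 49.4 and 58.1 CPM without and 43.7, 43.997 and 39.7 CPM with raffinose. All raffinose libraries were lower (log2 fold change -0.33, SE 0.09, edgeR adjusted p = 0.209, DESeq2 adjusted p = 0.0511). Its partner ATG5 was at 41.8, 35.9 and 65.9 CPM without and 66.0, 73.9 and 75.1 CPM with raffinose. Untreated replicate 3 lay beside the lowest raffinose library, and the log2 fold change of 0.58 had an interval of 0.05 to 1.12 (edgeR adjusted p = 0.341).

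The other 5 genes of this role had groups that overlapped. The log2 fold change was 0.14 for WIPI1, which binds phosphoinositides on the forming membrane, and -0.07 for ATG7, the enzyme that activates ATG8 proteins. It was -0.03 for the lipid scramblase ATG9A, -0.02 for UVRAG and -0.01 for BECN1, the latter pair being subunits of the lipid kinase complex of autophagy. The smallest edgeR adjusted p of these 5 was 0.655. BECN1 overlaps PSME3 on the opposite strand by 8948 bases, and PSME3 was at 77.6 CPM in raffinose replicate 3 and at 166 CPM or above in the other libraries.

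ATG8 proteins coat the autophagosome and bind cargo receptors, and 2 of the 3 measured here had uneven raffinose libraries. MAP1LC3B, which encodes the common autophagosome marker LC3B, was at 64.3, 60.8 and 83.7 CPM in untreated and 68.5, 135 and 118 CPM in raffinose replicates 1, 2 and 3. Raffinose replicate 1 lay within the untreated range and the other two above it. The log2 fold change was 0.62 (SE 0.26, 95% interval 0.00 to 1.24, edgeR adjusted p = 0.376). Its near-identical copy MAP1LC3B2 was far lower, at 2.70 to 4.36 CPM (174 to 280 counts per library). The split of reads between the copies is uncertain. GABARAPL1 was at 20.039, 20.2 and 24.8 CPM without and 59.5, 20.016 and 29.8 CPM with raffinose. Here raffinose replicate 1 was the high one, and raffinose replicate 2 was at the untreated level. Its log2 fold change of 0.75 (SE 0.38, edgeR adjusted p = 0.459) became 0.204 without raffinose replicate 1. GABARAPL2 had a log2 fold change of 0.10 with an interval of -0.10 to 0.30.

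**Figure D4:**
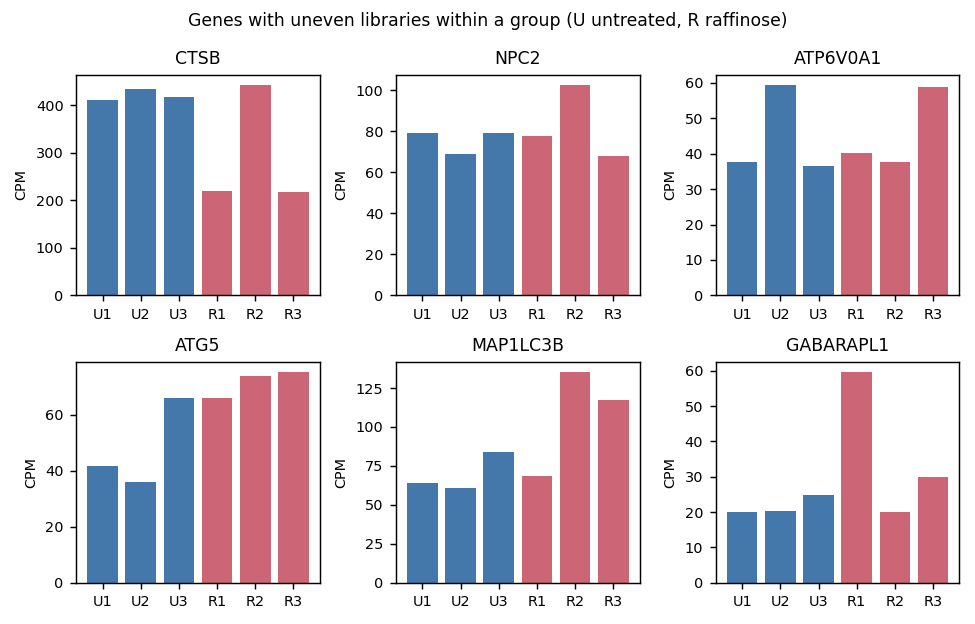
CPM in each library for the 6 of the 34 genes with a mean of at least 20 CPM whose highest library exceeded the lowest of the same group by more than 1.5 times. CTSB is low in raffinose replicates 1 and 3, MAP1LC3B is high in raffinose replicates 2 and 3, and GABARAPL1 is high in raffinose replicate 1.

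Such uneven libraries were about as frequent among these genes as elsewhere. With a mean of at least 20 CPM, 6 of 33 genes (18.2%) had libraries of 1 group that differed by more than 1.5 times, against 15.4% of 7805 genes over the whole table. Raffinose replicate 2 stood apart for CTSB and NPC2, and raffinose replicate 1 for MAP1LC3B and GABARAPL1. The uneven group was raffinose for these 4, untreated for ATG5 and both for ATP6V0A1.

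The selective autophagy receptors, which tie cargo to ATG8 proteins, all had positive log2 fold changes. SQSTM1 (ENSG00000161011, chromosome 5, 179806398 to 179838078, plus strand) was at 1142, 1058 and 1062 CPM in untreated and 1227, 1289 and 1170.1 CPM in raffinose replicates 1, 2 and 3. The groups did not overlap (log2 fold change 0.18, SE 0.06, edgeR adjusted p = 0.282). SQSTM1 shares 2946 bases with MRNIP on the opposite strand, which was at 53.3 to 56.2 CPM with and 41.3 to 46.1 CPM without raffinose. NBR1, a receptor related to SQSTM1, was at 85.8, 92.3 and 89.9 CPM without and 95.9, 96.1 and 98.3 CPM with raffinose, again without overlap (log2 fold change 0.11, SE 0.06, edgeR adjusted p = 0.443). OPTN, a receptor for mitochondria and bacteria, had overlapping groups and a log2 fold change of 0.07.

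Other genes of the same pathways were taken from 6 wider lists holding 156 genes, of which 152 were tested. By edgeR none passed, with 13 at an unadjusted p under 0.05 in the higher and 9 in the lower direction, or 14.5% against 13.3% of all genes. The median log2 fold change was 0.05, and 57.2% were positive against 51.0% of all genes tested. DESeq2 called ATG12 and ULK2 higher and NAGLU and STBD1 lower. Over all genes with an adjusted p it called 1.76% higher and 2.83% lower. Apart from ATP6V1C1, the genes named below were, in each list, the 3 with the smallest edgeR p. Their separation of the groups follows in part from that choice.

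Autophagy machinery had 36 tested genes, 23 of them positive, with a median of 0.08. ATG12, the ubiquitin-like protein that is joined to ATG5, was at 62.4, 58.3 and 57.2 CPM without and 84.4, 81.1 and 87.4 CPM with raffinose. The libraries of each group lay close together and the groups far apart (log2 fold change 0.51, SE 0.06, edgeR adjusted p = 0.0691, DESeq2 adjusted p = 8.57e-07). ULK2, the relative of ULK1, was at 39.9, 43.7 and 42.7 CPM without and 50.1, 50.7 and 54.2 CPM with raffinose (log2 fold change 0.30, edgeR adjusted p = 0.189). Both ULK kinases were thus higher in all 3 raffinose libraries, although edgeR called neither. WDR45B, a relative of WIPI1, had a log2 fold change of -0.16 (SE 0.06).

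Of the other selective autophagy receptors, 9 of 15 were positive, with a median of 0.15. The mitochondrial receptor BNIP3L had a log2 fold change of 0.22 (SE 0.07) and the endoplasmic reticulum receptor SEC62 one of 0.22 (SE 0.07). STBD1, which binds glycogen, was at 20.9, 5.24 and 21.4 CPM without and 4.48, 6.38 and 5.52 CPM with raffinose. Untreated replicate 2 lay among the raffinose libraries, and without it the log2 fold change of -1.54 became -1.96 (edgeR adjusted p = 0.0479).

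Lysosomal hydrolases outside the 34 genes had 21 of 38 positive and a median of 0.02. NAGLU, an enzyme of heparan sulfate breakdown, was at 22.7, 22.3 and 20.9 CPM without and 16.8, 18.7 and 16.7 CPM with raffinose (log2 fold change -0.33, edgeR adjusted p = 0.208, DESeq2 adjusted p = 0.0411). All of its raffinose libraries were lower. FUCA1, which removes fucose, had 0.21 (SE 0.06) and the serine carboxypeptidase SCPEP1 0.23 (SE 0.08), both without overlap of the groups. Lysosomal membrane and sorting genes had 15 of 28 positive and a median of 0.02. LMBRD1, needed for vitamin B12 export, had 0.27 (SE 0.08) and the two-pore channel TPCN1 -0.26 (SE 0.08). The mannose 6-phosphate receptor M6PR had -0.54 (SE 0.18), and the groups overlapped for none of these genes. M6PR was uneven without raffinose, at 169, 112 and 104 CPM, against 93.8, 82.4 and 88.4 CPM with it. Its log2 fold change ranged from -0.671 to -0.295 without 1 library.

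V-ATPase subunits outside the 34 genes had 9 positive and 9 negative of 18 tested and a median of 0.00. The subunits of very low level, at or below 2.77 CPM in every library, were all among the negative ones. ATP6V1G1 had a log2 fold change of -0.19 (SE 0.06) with all raffinose libraries lower, and ATP6V1D one of 0.33 (SE 0.13) with all raffinose libraries higher. ATP6V1C2 was at or below 2.77 CPM in every library, and its log2 fold change of -2.87 (SE 1.11) rested on untreated replicates 2 and 3. ATP6V1C1 was not among those 3 genes of its list and was also picked out with its values in view. It was at 56.8, 98.4 and 58.8 CPM without and 95.0, 97.8 and 98.5 CPM with raffinose. Untreated replicate 2 was at the raffinose level, and without it edgeR called the gene higher (log2 fold change 0.749, adjusted p = 0.0479). Partners of TFEB and the Rag and Ragulator proteins, which place mTORC1 on the lysosome, had 10 of 17 positive and a median of 0.09. The Rag GTPases RRAGC (0.19, SE 0.08) and RRAGD (0.33, SE 0.14) had higher log2 levels in all raffinose libraries, and RHEB, which activates mTORC1, had a log2 fold change of -0.19 (SE 0.09) with overlapping groups.

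**Figure D5:**
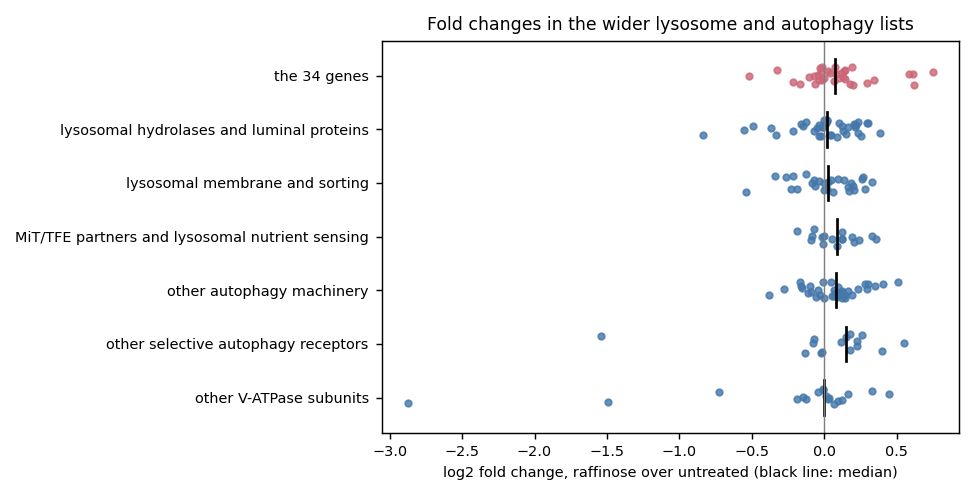
Each point is the log2 fold change of 1 tested gene, for the 34 genes and 6 wider lists, with a black line at the median. The medians lie between 0.00 and 0.15, and the points furthest to the left are V-ATPase subunits of very low level and STBD1.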

How the data were processed

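The authors deposited 1 table that lists, for each gene and each of the 6 libraries, FPKM and an estimated count, per the file headers. Libraries were made from poly(A) RNA with dUTP in the second strand and read from both ends, per the labels' protocols. Per the submitters' processing notes, the tools were HISAT2 2.0.4, cutadapt 1.9, DESeq2, edgeR and StringTie 1.3.4d, listed with no role. The sources used here do not give the genome build, annotation or strand setting. Of the 34 genes, 30 share at least 1 end with GENCODE 29 (GRCh38). The deposited estimated counts are whole numbers with an excess at 4 (1382 genes at 4, 456 at 3 and 286 at 5 in raffinose replicate 1), so they overstate read pairs and their sampling precision.

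Counts were tested over all genes with edgeR 4.0.16 in R 4.3.3 (filterByExpr with a minimum count of 10, TMM, glmQLFit, glmQLFTest), and p-values were adjusted by Benjamini-Hochberg over 18863 genes. SE is the fold change over the root of its F statistic, and 95% intervals use the fit's degrees of freedom. DESeq2 1.42.0 and limma 3.58.1 on log2 FPKM gave alternatives. Fits were tested on simulated counts. The genes and lists were chosen with earlier results of these data known. Named genes are all 34 and, from each wider list, called genes and the 3 with the smallest p.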

Additional observations from a re-analysis of the deposited data

How the results depend on the processing

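Against 0 of the 34 genes higher and 0 lower, DESeq2 called 2 higher (SIDT2 and ATP6V1A), and SIDT2 was the 1 gene called higher by edgeR at a mean FPKM of at least 1, by limma on log2(FPKM + 1) and log2(FPKM + 0.1), and by edgeR on counts divided by 4. With each library left out, 0 were called higher and 0 to 1 lower, the 1 being CTSB. In the wider lists, DESeq2 called 2 higher and 2 lower, the FPKM filter and each limma fit 1 higher (ATG12), and fits without 1 library 0 to 1 higher and 0 to 1 lower (ATP6V1C1 and STBD1, both without untreated replicate 2). Over all genes, against 7 higher and 16 lower, DESeq2 called 254 and 409, the FPKM filter 15 and 27, limma 18 and 28 at a pseudocount of 1 and 17 higher at 0.1, and counts divided by 4 gave 11 higher. Without 1 library, 0 to 15 were higher and 4 to 13 lower, with 0 and 4 without untreated replicate 3, 15 and 8 without untreated replicate 1, 12 and 8 without untreated replicate 2, and 3 and 8 without raffinose replicate 2. The cause of these differences was not tested.

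With the replicate block in the model, 0 genes were called higher and 0 lower, with 1932 genes and 7 of the 34 at an unadjusted p under 0.05. Libraries sharing a number had residual correlations of -0.00892, -0.0326 and 0.00629, and 0 of 6 correlated best with their own number. No pairing by number was thus seen, but with 3 libraries per group this check cannot decide whether the numbers mark matched cultures.

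The median log2 fold change of the 34 genes ranged from 0.0494 to 0.0911 without 1 library. Of the 34, 25 kept their direction in every alternative that gave a value. The other 9, none of which was called, turned sign. CTSZ was at -8.07e-05 in DESeq2, -8.16e-05 with DESeq2 size factors, -0.000374 with no filter and -0.0469 to 0.0432 without 1 library. BECN1 was at 0.00235 with the FPKM filter, 0.0231 and 0.0264 in limma at pseudocounts of 1 and 0.1, and -0.0879 to 0.0512 without 1 library. In the same order UVRAG was at 0.0123, 0.0148 and -0.0855 to 0.0577 and ATG9A at 0.00272, 0.00256 and -0.0982 to 0.0481. TFEB was at 0.00678 with the block and -0.137 to 0.204 without 1 library. LAMP1 ranged from -0.22 to 0.0663, ATP6V0A1 from -0.19 to 0.302, NPC2 from -0.0562 to 0.249 and CTSL from -0.0162 to 0.0591 without 1 library. TFEB lies below the FPKM minimum of 1 and has no value in the fits with that filter. TFEB, at 3.85 to 5.95 CPM, had the fewest counts of the 34 genes. Its interval of -0.49 to 0.45 is not adjusted for the number of genes and leaves differences of either sign possible.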
